A study of Mus musculus with 6 samples.

Results

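The hypoxia-inducible factor (HIF) genes, their oxygen-dependent regulators and a pair of their target genes were examined in the RNA-Seq counts of mouse Naive, Th17 and Th1 cells. The members were 9 genes chosen by symbol from the 24223 genes counted: *Hif1a*, *Epas1*, *Hif1an*, *Vhl*, *Egln1*, *Egln2*, *Egln3*, *Bnip3* and *Vegfa*. All 9 were found in each of the 6 libraries and all 9 passed the filter on low counts, with between 21 and 73858 counts per library. The cells came from C57BL/6 mice aged 1 to 2 months, with 2 libraries per cell type that the study's text calls independent biological replicates. Naive cells were CD4+CD44- T cells isolated with a kit from pooled lymph nodes and spleens and were taken without activation. Th1 cells were Naive cells cultured to day 5 with anti-CD3 and anti-CD28 (antibody or beads), anti-IL-4, IL-12 and IL-2. Th17 cells were cultured to day 5 with the same stimulation, anti-IL-4, anti-IFN-γ, TGF-β, IL-6, IL-1β and IL-23. Each comparison with Naive therefore holds activation, culture and polarization together, and these cannot be told apart. The oxygen level of the cultures is not given in the sources used here.

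HIF is a transcription factor made of an oxygen-regulated α subunit and a constant β subunit. When oxygen is present, the prolyl hydroxylases encoded by *Egln1*, *Egln2* and *Egln3* (also called PHD2, PHD1 and PHD3) modify the α subunit, the VHL protein binds the modified form, and the α subunit is degraded. The asparaginyl hydroxylase FIH, encoded by *Hif1an*, modifies the same subunit at another residue and limits its binding to coactivators. When oxygen is low, or when signals such as T cell receptor stimulation raise its synthesis, the α subunit accumulates, pairs with ARNT and binds DNA at a short core motif. HIF-1α is known for its role in the glycolytic metabolism of activated T cells and in the balance between Th17 and regulatory T cells. Since the α subunit is controlled mainly through protein stability, transcript counts do not measure HIF activity.

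The core motif bound by HIF is RCGTG, which stands for ACGTG or GCGTG. Both were searched on both strands in the 250 bases before the first RefSeq start site listed for each member (GRCm38.p6), and 8 of the 9 members had such a sequence. Of 32851 windows of this length over all genes, 38.6% held at least 1 match to either motif, 16.6% to ACGTG and 28.2% to GCGTG. The windows of 5 members are printed 5′ to 3′, with matches in capitals, because they set the 4 members that rose beside *Egln2*, a prolyl hydroxylase gene that was not called. CACGT and CACGC are the same motifs read on the other strand, and in CACGTG the matches of both strands overlap.

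Bnip3 (chr7:138909507-138909756, minus strand): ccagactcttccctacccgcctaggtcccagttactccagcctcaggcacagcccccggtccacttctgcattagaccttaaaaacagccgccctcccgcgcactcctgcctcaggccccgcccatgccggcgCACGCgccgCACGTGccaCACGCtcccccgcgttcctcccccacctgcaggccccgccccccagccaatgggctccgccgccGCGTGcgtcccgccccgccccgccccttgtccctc

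Egln3 (chr12:54203875-54204124, minus strand): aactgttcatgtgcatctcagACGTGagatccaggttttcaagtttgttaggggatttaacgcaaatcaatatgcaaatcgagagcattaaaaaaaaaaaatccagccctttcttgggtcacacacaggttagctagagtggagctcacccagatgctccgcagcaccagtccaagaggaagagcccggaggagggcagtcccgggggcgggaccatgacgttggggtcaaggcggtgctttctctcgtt

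Vegfa (chr17:46032378-46032627, minus strand): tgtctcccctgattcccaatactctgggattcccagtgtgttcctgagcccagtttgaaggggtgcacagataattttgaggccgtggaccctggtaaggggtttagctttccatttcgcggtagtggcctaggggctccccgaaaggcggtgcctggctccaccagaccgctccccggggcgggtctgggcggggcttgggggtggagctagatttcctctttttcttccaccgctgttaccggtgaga

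Hif1a (chr12:73907617-73907866, plus strand): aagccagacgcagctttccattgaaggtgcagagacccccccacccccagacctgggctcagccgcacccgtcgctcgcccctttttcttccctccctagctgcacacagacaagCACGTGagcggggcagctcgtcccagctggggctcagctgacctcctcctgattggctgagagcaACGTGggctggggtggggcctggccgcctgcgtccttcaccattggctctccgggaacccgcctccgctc

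Egln2 (chr7:27166803-27167052, minus strand): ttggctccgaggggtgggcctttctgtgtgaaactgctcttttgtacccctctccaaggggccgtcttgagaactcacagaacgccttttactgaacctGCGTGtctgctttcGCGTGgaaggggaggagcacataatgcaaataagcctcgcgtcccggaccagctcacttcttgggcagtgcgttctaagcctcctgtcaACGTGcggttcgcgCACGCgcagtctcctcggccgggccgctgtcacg

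*Bnip3* had 5 matches, the most of the 8 windows, with 2 of ACGTG in a single CACGTG about 107 bases before the start site. *Hif1a*, whose RefSeq start lies inside the wider GENCODE span of the gene, had 3 matches, all of ACGTG, of which 2 formed a CACGTG. A stretch after this start was found in 0 GENCODE transcripts of *Hif1a*, against 1 to 3 for each other member with a window. The start site of *Hif1a* could therefore not be checked in this way. *Egln3* had 1 match 229 bases before the start, and *Vegfa* had 0 in this window. *Egln2*, which was called in none of the comparisons, had 4 matches, so that the number of matches did not follow the calls among the members. *Egln1* had 2 matches, and *Hif1an* and *Vhl* had 0. The windows also differed in base composition, with 50.8% G and C in *Egln3*, 59.2% in *Egln2* and 72.4% in *Bnip3*. A match is a description of the letters and not a measured binding site.

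**Figure D1:**
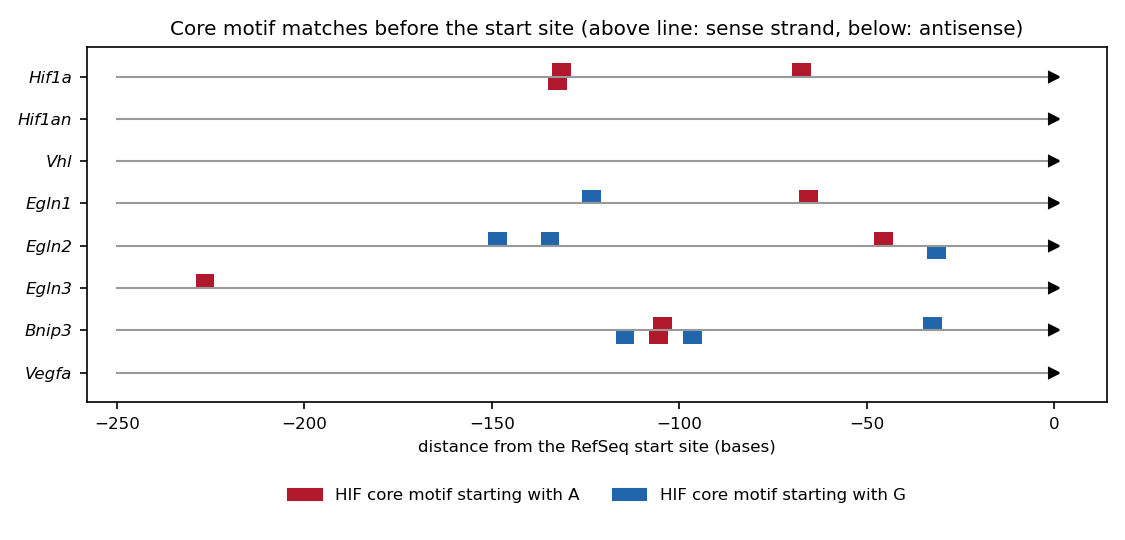
Matches to the HIF core motif in the 250 bases before the RefSeq start site of 8 members, with the distance from the start site in bases on the x axis and a row for each gene. Blocks above the line are on the strand of the gene and blocks below it on the other strand, and *Bnip3* carries 5, *Egln2* 4 and *Vegfa* 0.

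The libraries held between 17742158 and 69080017 counts, and replicate 1 was between 3.38 and 3.77 times as deep as replicate 2 of its cell type. Levels are given as CPM, a gene's counts per 1000000 counts of its library, with library totals scaled by edgeR's TMM factors, which ranged from 0.862 to 1.09. The labelled cell types were checked against markers. *Il17a* had 526 and 691 CPM in Th17 and 0.0495 to 0.542 CPM in the other 4 libraries, and *Tbx21* had 138 and 159 CPM in Th1 and 2.72 to 23.3 CPM elsewhere. *Ccr7*, a marker of naive T cells, did not separate the Naive libraries from the others, with 296 and 396 CPM in Naive and 323 to 523 CPM in the other libraries. Markers of other cells were also present. The 7 neutrophil markers summed to 2875 and 2774 CPM in Th17, against 189 to 310.3 CPM in Naive and 27.4 to 39.3 CPM in Th1. Most of the Th17 sum came from *S100a8* (1149 and 1142 CPM) and *S100a9* (1039 and 1060 CPM). These genes, *Ltf*, *Ngp* and *Camp* had at most 0.969 CPM per Naive library. *Mpo* went the other way, with 68.1 and 58.7 CPM for Th17 against 250.7 and 159.3 CPM for Naive. *Elane* overlapped, at 52.5 and 46.9 CPM for Th17 beside 57.3 and 29.6 CPM for Naive. The 6 monocyte and macrophage markers summed to 293 and 867 CPM in the Th17 replicates. Of 9 erythroid markers, summed at 792 and 126 CPM in the Naive replicates, the 4 globin genes had 0 counts in every library. In bulk samples, more or fewer cells of a type and more or less RNA per cell cannot be told apart.

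The 3 cell types were set against each other with the quasi-likelihood F-test of edgeR, in 1 fit of all 6 libraries and 13607 genes. Calls required an adjusted p (Benjamini-Hochberg, over all these genes) under 0.01 and a change of more than 1 in either direction on the log2 scale, the log2 fold change (log2FC). A log2FC between Th1 and Th17 is that of Th1 over Th17, above 0 where Th1 was higher. *Hif1a*, *Egln3* and *Bnip3* rose in Th17 compared with Naive, and these genes and *Vegfa* rose in Th1 compared with Naive. Between Th1 and Th17, *Egln3* alone was called, and it was higher in Th1. So 3 of 9 members were called for Th17 against Naive, where 5.43% of all genes were called and 4.01% were called as higher. For Th1 against Naive 4 of 9 members were called, all higher, beside 7.45% of all genes and 4.64% as higher. For Th1 against Th17 it was 1 of 9, higher, beside 5.53% of all genes and 2.70% as higher. By edgeR, 0 of the 9 fell, where 1.43%, 2.81% and 2.83% of all genes did in the 3 comparisons, though 1 (*Epas1*) had an unadjusted p under 0.05 and a lower level in Th17 than in Naive, where DESeq2 called it, and 1 (*Bnip3*) in Th1 than in Th17, where DESeq2 did not. *Epas1*, *Hif1an*, *Vhl*, *Egln1* and *Egln2* were called in none of the comparisons. The comparisons with Naive share the Naive libraries. The libraries of the 2 cell types did not overlap for 7 members in Th17 compared with Naive (65.5% of all genes), for 6 in Th1 compared with Naive (56.0%) and for 6 in Th1 compared with Th17 (66.6%), so that the members' counts were near the background. With 2 libraries per group an exact two-sided permutation test of 1 gene cannot reach 0.05, so p-values come only from the model over all genes.

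**Figure D2:**
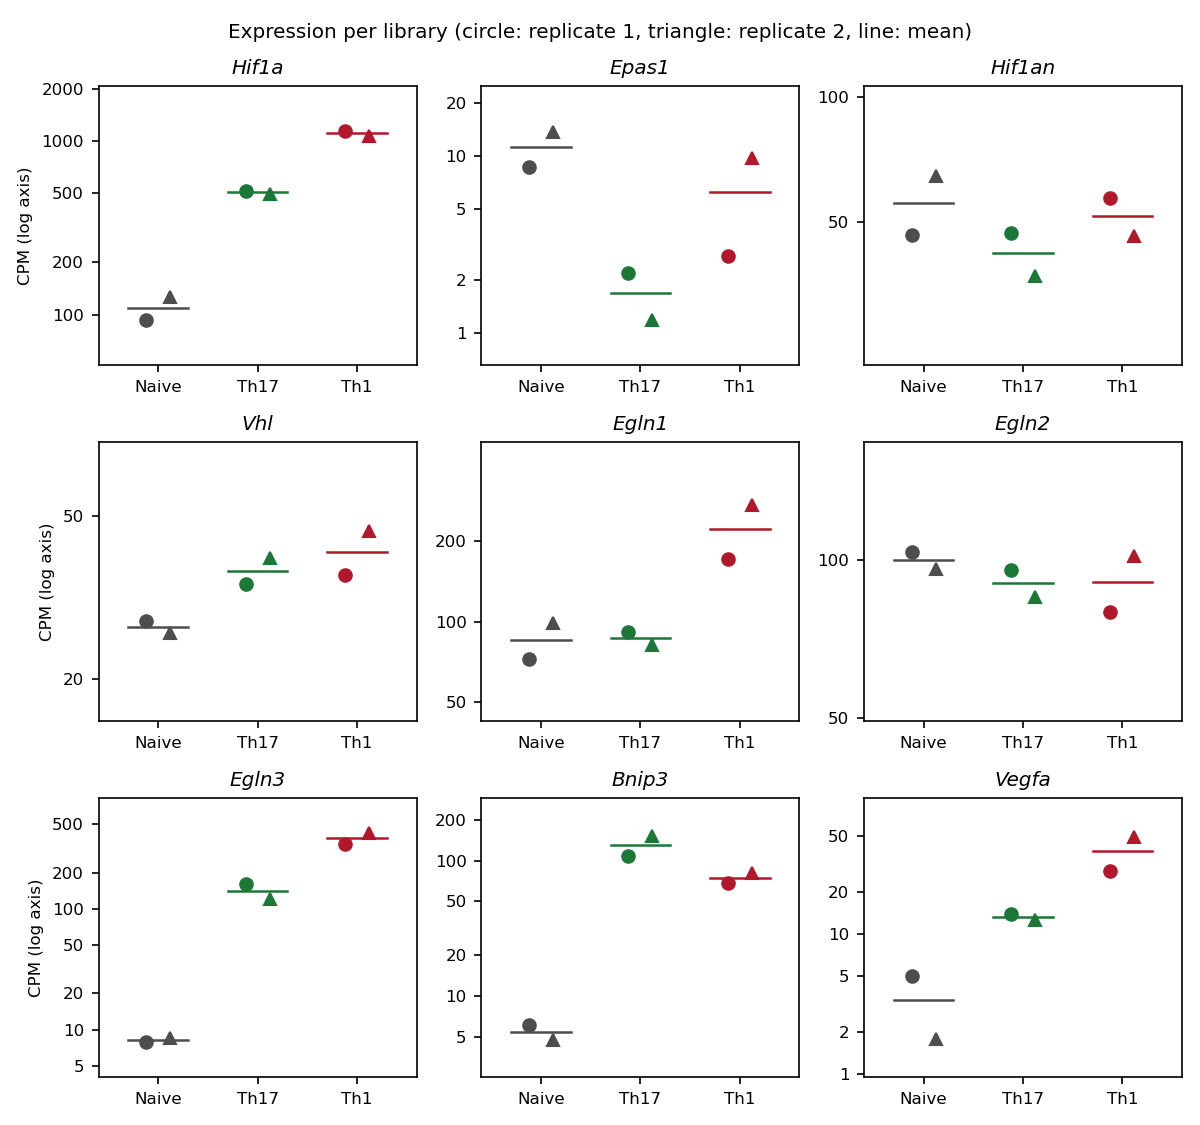
CPM of the 9 members in each library on log axes, with a circle for replicate 1, a triangle for replicate 2 and a line at the mean of each cell type. *Hif1a* and *Egln3* climb from Naive through Th17 to Th1, *Bnip3* is highest in Th17 at 108 and 152 CPM, and *Egln2* stays between 79.9 and 104 CPM.

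The α subunit genes differed in level and in direction. *Hif1a* (GRCm38 chromosome 12, bases 73901375 to 73947530) had 92.7 and 126 CPM in the Naive libraries, 518 and 496 CPM in Th17 and 1143 and 1073 CPM in Th1. The Naive, Th17 and Th1 libraries formed 3 groups without overlap. Relative to Naive it was 4.64-fold higher in Th17 (log2FC 2.21, standard error 0.30, adjusted p = 0.0014 by edgeR) and 10.1-fold higher in Th1 (3.34, standard error 0.31, adjusted p = 1.8e-04). Th1 over Th17 gave a log2FC of 1.13 (standard error 0.29), which did not pass in edgeR's test (adjusted p = 0.029) and was called by DESeq2 (adjusted p = 7.9e-04). Without Naive replicate 1 the call in Th17 relative to Naive was lost, at a log2FC of 2.01. *Epas1*, which encodes HIF-2α, on chromosome 17 from 86753700 to 86833410, was low in every library. It had 8.66 and 13.8 CPM (Naive), 2.17 and 1.19 CPM (Th17), the latter from 21 counts, and 2.74 and 9.74 CPM (Th1). Both Th17 libraries lay below both Naive libraries, while the Th1 replicates differed 3.56 times and overlapped the Naive range. The log2FC in Th17 relative to Naive was -2.70 (95% interval -4.11 to -1.29, adjusted p = 0.020 by edgeR), which was not called and was called by DESeq2 (adjusted p = 3.5e-04). For Th1 against Naive it was -0.87 (95% interval -2.19 to 0.46), and it was -0.16 without Th1 replicate 1 and -2.02 without Th1 replicate 2.

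Per kb of exon, so that levels of different genes can be set side by side, *Epas1* made up 8.97% and 10.3% of the summed CPM per kb of *Hif1a* and *Epas1* in the Naive libraries. Its share was 0.441% and 0.252% in Th17, and 0.252% and 0.948% in Th1. The share was thus lower in each cultured library than in each Naive library, and *Hif1a* supplied most of the pair in each of the 6 libraries.

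The prolyl hydroxylase genes behaved as 3 separate cases. *Egln3*, on chromosome 12 from 54178981 to 54203860 and itself a well-known HIF target, had the largest fold of the 9 members in Th1 relative to Naive. It had 7.88 and 8.57 CPM (Naive), 161 and 121 CPM (Th17) and 345 and 423 CPM (Th1). The cell types did not overlap, and the replicates of each lay within 1.33 times of each other. Relative to Naive, *Egln3* was 17.2-fold higher in Th17 (log2FC 4.10, standard error 0.31, adjusted p = 6.0e-05 by edgeR) and 46.8-fold higher in Th1 (5.55, standard error 0.33, adjusted p = 1.6e-05). Between Th1 and Th17 the log2FC was 1.45 (standard error 0.28, adjusted p = 0.0082). This call was lost with library size as the only scaling, with at least 10 counts required in every library, and in a test against a 2-fold change. It was also lost without any 1 of the 4 Th1 and Th17 libraries, at log2FC values from 1.26 to 1.66.

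*Egln1*, which encodes PHD2, the main oxygen sensor of most cells, lies on chromosome 8 from 124908587 to 124949324. It had 72.7 and 98.9 CPM (Naive) and 91.2 and 82.0 CPM (Th17), and the Th1 libraries lay above all of these at 171 and 273 CPM. The log2FC in Th1 was 1.37 relative to Naive (95% interval 0.68 to 2.06, adjusted p = 0.015 by edgeR) and 1.36 compared with Th17 (95% interval 0.67 to 2.04, adjusted p = 0.018). Neither passed 0.01 in edgeR's test, and DESeq2 called both (adjusted p = 8.4e-04 and 0.0012). For Th17 against Naive the log2FC of *Egln1* was 0.01, with a 95% interval from -0.66 to 0.69.

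*Egln2*, which encodes PHD1, on chromosome 7 from 27158658 to 27166802, stayed within a narrow range. It had 104 and 96.2 CPM (Naive), 95.9 and 85.0 CPM (Th17) and 79.9 and 102 CPM (Th1). The Th1 range took in every other value but the higher one of Naive. The log2FC of *Egln2* was -0.15 in Th17 relative to Naive (95% interval -0.71 to 0.42) and -0.14 in Th1 relative to Naive (95% interval -0.70 to 0.42). For Th1 over Th17 it was 0.01 (95% interval -0.56 to 0.57). The intervals leave out changes of 2-fold, the size a call requires, in either direction.

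**Figure D3:**
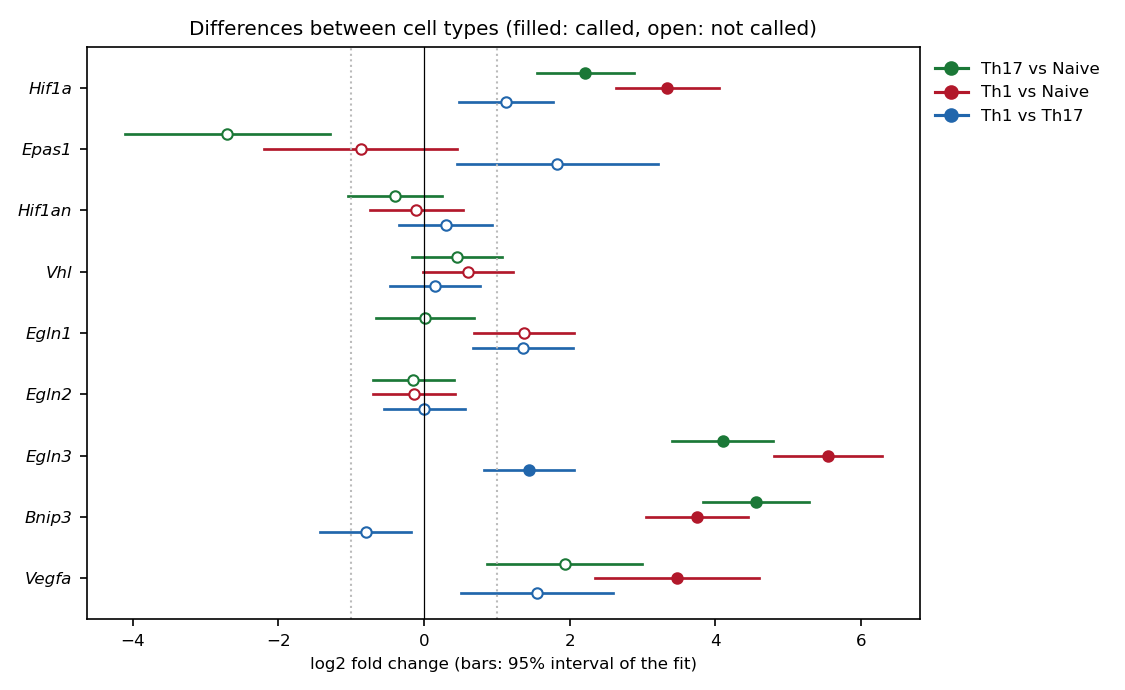
Log2 fold changes of the 9 members in the 3 comparisons, with bars for the 95% interval of edgeR's fit, filled points for calls and dotted lines at -1 and 1. *Egln3* reaches 5.55 in Th1 relative to Naive, *Egln2* and *Hif1an* lie near 0 in all 3 comparisons, and *Bnip3* is the member whose point for Th1 compared with Th17 lies below 0, at -0.80.

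The makeup of the prolyl hydroxylase transcripts differed between the cell types. *Egln2* led in Naive, with 61.5% and 52.8% of the summed CPM per kb of *Egln1*, *Egln2* and *Egln3*, while *Egln3* had 4.92% and 4.94%. In Th17 *Egln3* led with 50.4% and 46.1%, and *Egln2* had 28.5% and 30.8%. In Th1 *Egln3* held 63.0% and 58.6%, and *Egln2* was the smallest with 13.9% and 13.4%. *Egln1* stayed between 21.1% and 42.3% over the 6 libraries. With the longest annotated transcript in place of all exons, *Egln3* held 46.1% and 41.8% in Th17 and 60.3% and 56.1% in Th1, and it again led in each of these libraries.

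**Figure D4:**
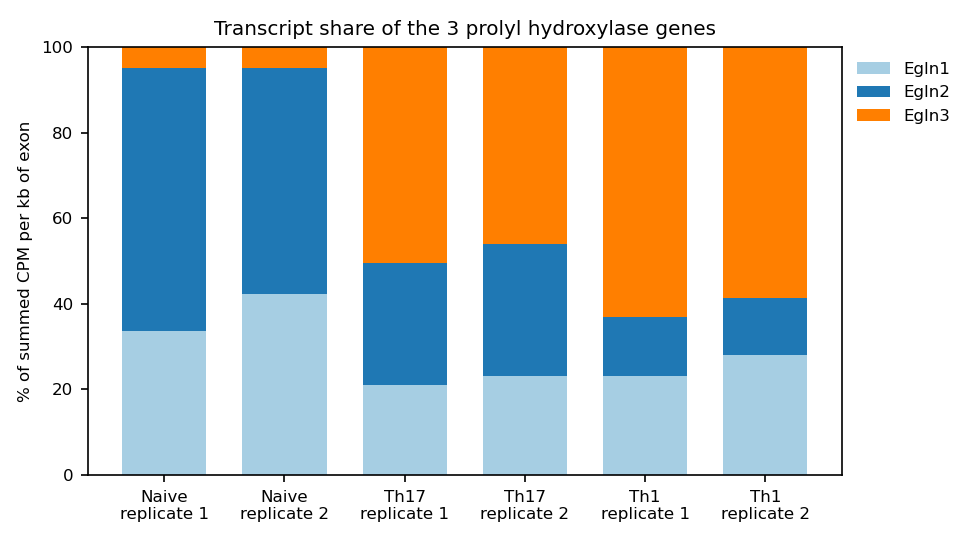
Stacked shares of *Egln1*, *Egln2* and *Egln3* in their summed CPM per kb of exon, in percent, with a bar for each library. *Egln3* fills 4.92% and 4.94% of the Naive bars and between 46.1% and 63.0% of the Th17 and Th1 bars.

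The genes that act beside and after prolyl hydroxylation were called in none of the comparisons. *Vhl*, the substrate receptor of the ubiquitin ligase, lies on chromosome 6 from 113623959 to 113631633. It had 27.7 and 25.9 CPM (Naive), 34.2 and 39.4 CPM (Th17) and 35.8 and 46.0 CPM (Th1). The cultured libraries all lay above the Naive libraries, yet the log2FC was 0.45 in Th17 (95% interval -0.16 to 1.07) and 0.61 in Th1 (95% interval -0.01 to 1.22) relative to Naive, and neither was called. *Hif1an*, on chromosome 19 between 44562850 and 44576274, had 46.4 and 64.6 CPM (Naive), 46.9 and 37.0 CPM (Th17) and 57.0 and 46.2 CPM (Th1). All 3 cell types overlapped. Its log2FC was -0.40 in Th17 (95% interval -1.04 to 0.24) and -0.10 in Th1 (95% interval -0.74 to 0.54) relative to Naive.

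Both target genes rose in Th1 relative to Naive, and *Bnip3* rose in Th17 as well. *Bnip3*, a mitochondrial protein of the Bcl2 family that takes part in mitophagy, lies on chromosome 7 from 138890836 to 138909519. It had 6.19 and 4.80 CPM (Naive), 108 and 152 CPM (Th17) and 68.2 and 81.2 CPM (Th1). Both Th17 libraries lay above both Th1 libraries, the reverse of *Hif1a* and *Egln3*. Relative to Naive, *Bnip3* was 23.5-fold higher in Th17 (log2FC 4.55, standard error 0.33, adjusted p = 5.3e-05 by edgeR) and 13.5-fold higher in Th1 (3.75, standard error 0.31, adjusted p = 1.0e-04). The log2FC of Th1 over Th17 was -0.80 (95% interval -1.42 to -0.17, adjusted p = 0.078), which was not called. The Th17 libraries, with more *Bnip3*, also had higher sums of several marker lists than Th1. Summed levels were 2875 and 2774 against 27.4 and 39.3 CPM for the neutrophil markers, 293 and 867 against 16.3 and 22.6 CPM for the monocyte and macrophage markers, and 182 and 472 against 57.7 and 40.1 CPM for the 5 mast cell and basophil markers. Between the Th17 replicates the sums of the last pair of lists were higher in the one with more *Bnip3*, and the neutrophil sum was not. That replicate also had higher sums of the T cell markers (2348 against 1735 CPM) and Th17 markers (1872 against 1405 CPM). Its megakaryocyte sum (451 against 255 CPM) and its small erythroid sum were higher too. The naive T cell, Th1, B cell, and CD8 T and NK cell sums were lower in it. *Lyz2* supplied 223 and 762 CPM of the monocyte and macrophage sums in Th17. The mast cell and basophil marker *Kit* went the other way, with 12.8 and 11.4 CPM in Th17 against 23.7 and 22.4 CPM in Th1. The part of cells other than T cells in the difference was not tested. Other annotated genes match 94.2% of the longest *Bnip3* transcript over stretches of at least 100 bases at 95% identity or more, 1654 of its 1756 bases in *AC160336.1* alone. HTSeq by default leaves out reads that map to several places, so the level of *Bnip3* relative to other genes is uncertain. Its annotated antisense gene *Gm45507* covers 22.3% of its exon bases.

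*Vegfa*, the vascular growth factor by which many hypoxic tissues recruit vessels, lies on chromosome 17 from 46016993 to 46032369. It had 4.98 and 1.78 CPM (Naive), from 339 and 36 counts, 13.9 and 12.6 CPM (Th17) and 28.2 and 49.2 CPM (Th1). The cell types did not overlap, but the Naive replicates differed 2.79 times. For Th1 against Naive *Vegfa* was 11.1-fold higher (log2FC 3.48, standard error 0.51, adjusted p = 0.0017 by edgeR). It was called without any 1 library, at a log2FC of 4.43 without Naive replicate 1 and 2.95 without Naive replicate 2. For Th17 against Naive the log2FC was 1.93 (standard error 0.48), and the gene did not pass in edgeR's test (adjusted p = 0.025). It was called by DESeq2 (adjusted p = 0.0013), and by edgeR without Naive replicate 1, at 2.89. For Th1 over Th17 it was 1.55 (95% interval 0.50 to 2.59, adjusted p = 0.049). The Naive replicate with more *Vegfa* also had more of the erythroid markers (792 against 126 CPM) and of the 4 megakaryocyte markers (20.2 against 4.70 CPM). It had more of every other list outside T cells too, among them mast cell and basophil (169 against 47.6 CPM) and neutrophil markers (310.3 against 189 CPM). Its sums of T cell, naive T cell and Th17 markers were lower, and that of Th1 markers slightly higher. The megakaryocyte markers summed to 255 and 451 CPM in Th17 and 70.8 and 32.3 CPM in Th1. The part of cells other than T cells in the values of *Vegfa* was not tested.

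Within each cell type, the order of the members was read per kb of exon. In Naive, *Egln2* led with 35.7 ± 1.91 CPM per kb (SD, n = 2), followed by *Egln1* with 23.9 ± 5.16 and *Hif1a* with 18.5 ± 3.98, whose libraries overlapped. *Vhl* and *Hif1an* came next at 8.96 ± 0.420 and 8.40 ± 1.94 and overlapped, then *Egln3* at 3.09 ± 0.182 and *Bnip3* at 2.43 ± 0.434. *Bnip3* overlapped *Epas1* at 2.01 ± 0.646, and *Vegfa* was lowest at 0.789 ± 0.527. In Th17 *Hif1a* led with 86.0 ± 2.62 CPM per kb, and *Bnip3* and *Egln3*, next at 57.4 ± 13.8 and 52.9 ± 10.7, overlapped. In Th1 *Hif1a* led with 187.9 ± 8.37 and *Egln3* followed with 144.3 ± 20.9, with no overlap between them. *Epas1* was lowest in both cultures, at 0.301 ± 0.125 in Th17 and 1.12 ± 0.885 in Th1. *Egln2* led in Naive, came after *Hif1a*, *Bnip3* and *Egln3* in Th17, and after *Hif1a*, *Egln3* and *Egln1* in Th1, where it overlapped *Bnip3*, while its own level was not called as changed. With the longest annotated transcript in place of all exons, 7 of the 9 members kept their rank in Naive, 9 in Th17 and 7 in Th1. *Bnip3*, whose level relative to other genes is uncertain, then lay just above *Egln3* in Naive (3.13 against 3.09 CPM per kb) and just below *Egln2* in Th1 (42.5 against 43.1 CPM per kb).

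Around the members, 79 genes of the HIF pathway in 5 lists were read, of which 74 were tested. Of these, 14 rose and 1 fell in Th17 relative to Naive, and 22 rose and 1 fell in Th1 relative to Naive. Between Th1 and Th17, 5 were higher and 3 lower in Th1. The share called was 20.3%, 31.1% and 10.8% in these comparisons, beside 5.43%, 7.45% and 5.53% of all genes. Of 14 partners of HIF and genes of the VHL ligase, 1 was called in Th17 relative to Naive, 1 between Th1 and Th17 and 0 in Th1 relative to Naive. In the same order, DESeq2 called 2, 3 and 1 of the 14, and 1738, 1824 and 1928 over all genes. An unadjusted p under 0.05 in edgeR's test was reached by 5, 6 and 3 of the 14. The share of all genes at that unadjusted p is not given here. A single call among these 14 is 7.14%, near the share of all genes. *Arnt2*, an alternative β subunit, had 0.646 and 0.248 CPM (Naive), 10.9 and 6.39 CPM (Th17) and 4.38 and 2.15 CPM (Th1). It rose in Th17 (log2FC 4.16, standard error 0.63, adjusted p = 0.0025 by edgeR) and was not called in Th1 (2.78, adjusted p = 0.013). *Siah1a*, a ubiquitin ligase known to act on the prolyl hydroxylases, had 34.3 and 51.6 CPM in Th17 and 12.1 and 15.2 CPM in Th1, and was lower in Th1 by a log2FC of -1.66 (standard error 0.32, adjusted p = 0.0086).

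Among HIF targets outside glucose metabolism, 10 of 28 genes tested rose and 0 fell in Th17 relative to Naive, and 12 rose and 1 fell in Th1. Of all genes, 4.01% rose and 1.43% fell in Th17, and 4.64% rose and 2.81% fell in Th1. The median log2FC of the list was 1.16 in Th17 and 1.57 in Th1, against -0.02 in both comparisons for all genes tested. *Stc2*, which encodes a secreted glycoprotein, had 1.54 and 1.04 CPM (Naive), 12.8 and 10.4 CPM (Th17) and 92.8 and 117 CPM (Th1). It rose by a log2FC of 3.13 in Th17 and 6.30 in Th1 relative to Naive, and was also higher in Th1 than in Th17 (3.17, standard error 0.32, adjusted p = 3.9e-04 by edgeR). *Slc16a3*, the lactate exporter MCT4, had 10.8 and 8.02 CPM (Naive), 164 and 116 CPM (Th17) and 324 and 314 CPM (Th1). *Ak4*, a mitochondrial adenylate kinase, followed the same order with 1.72 and 1.09, 15.7 and 12.7, and 25.6 and 25.8 CPM. Both rose in each comparison with Naive, and neither was called between Th1 and Th17 (adjusted p = 0.022 and 0.11). *Plod2*, a collagen lysyl hydroxylase, had the order of *Bnip3*, with means of 1.27 ± 0.0944 (SD, n = 2) CPM (Naive), 27.5 ± 0.718 CPM (Th17) and 14.5 ± 3.35 CPM (Th1). The gene that fell was *Ddit4*, an inhibitor of mTORC1, singled out after its value was seen. It went from 571 and 462 CPM in Naive to 184 and 131 CPM in Th1 (log2FC -1.71, adjusted p = 0.0048). Between Th1 and Th17 the median of this list was -0.05.

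HIF targets of glucose metabolism had 3 of 17 genes called in Th17 and 9 of 17 in Th1 relative to Naive, all higher, with medians of 0.90 and 1.47. Of all genes, 4.01% and 4.64% were called as higher in these comparisons. Between Th1 and Th17 the median of the list was 0.74, and all 17 had log2FC values above 0 while 1 was called. Of all 13607 genes tested, 6642 lay above 0 and 2.70% were called as higher in Th1 than in Th17. With library size as the only scaling the median of all genes tested moved by -0.21 in this comparison. *Hk2*, a hexokinase, rose from 9.28 and 5.99 CPM in Naive to 40.2 and 23.8 CPM in Th17 and 99.9 and 64.1 CPM in Th1. *Pgk1*, *Slc2a1* (the glucose transporter GLUT1) and *Tpi1* rose in Th1 relative to Naive by log2FC values of 2.83, 2.77 and 2.39. *Slc2a1* was the gene called between Th1 and Th17, at 1.72 (standard error 0.27, adjusted p = 0.0034 by edgeR). Several glycolytic genes have processed copies elsewhere in the genome, so that their levels are uncertain.

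The other genes named with *Vegfa* and *Bnip3* did not move as a group. Of 7 VEGF family and receptor genes tested, 1 fell in Th17 relative to Naive and 1 rose in Th1, with medians of 0.01 and 0.49. Of all genes, 1.43% fell in Th17 and 4.64% rose in Th1 relative to Naive. *Nrp1*, a coreceptor, had 29.0 and 38.7 CPM (Naive), 6.84 and 8.88 CPM (Th17) and 18.6 and 22.1 CPM (Th1), and fell in Th17 by a log2FC of -2.11 (standard error 0.33, adjusted p = 0.0027 by edgeR). *Nrp2* was lower in Th1 than in Th17 by -3.60 (standard error 0.58, adjusted p = 0.0036), with 0.664 ± 0.134 against 8.33 ± 4.70 CPM (SD, n = 2). *Arnt2*, *Siah1a*, *Plod2* and *Nrp2* were, like *Bnip3*, highest in Th17. The summed neutrophil markers and the summed monocyte and macrophage markers were also highest there, though the neutrophil marker *Mpo* was highest in Naive. The part of neutrophils, monocytes and macrophages was not tested. Of 9 mitophagy genes tested, 0 were called by edgeR or DESeq2 in any comparison, and their medians lay between 0.10 and 0.23. Of all genes, edgeR called 5.43% in Th17 and 7.45% in Th1 relative to Naive, and 5.53% between Th1 and Th17. An unadjusted p under 0.05 was reached by 4 of the mitophagy genes in Th17 relative to Naive, 0 in Th1 relative to Naive and 3 between Th1 and Th17. The share of all genes at that unadjusted p is not given here, so these counts cannot be set against a background.

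**Figure D5:**
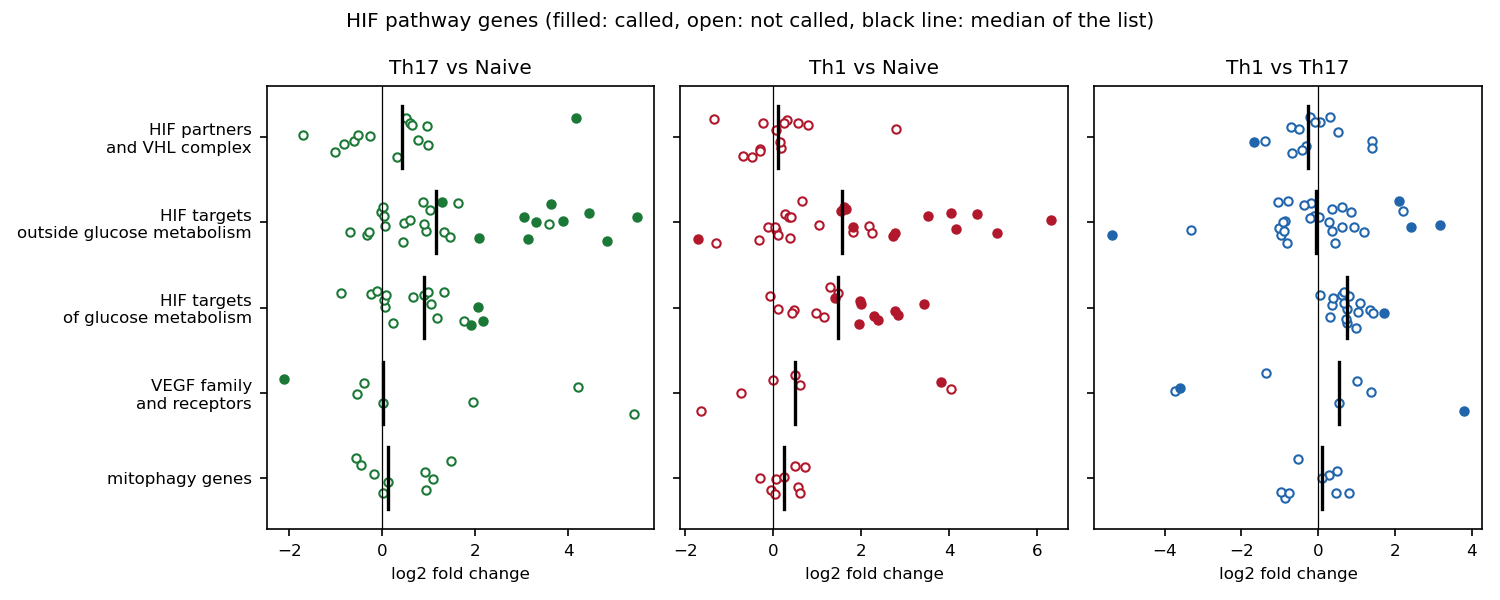
Log2 fold changes of the HIF pathway genes tested, by list, in the 3 comparisons, with filled points for calls and a black line at the median of each list. The targets outside glucose metabolism have medians of 1.16 and 1.57 in the comparisons with Naive and -0.05 between Th1 and Th17, and the mitophagy list holds 0 calls.

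Genes with a pattern like that of a member were sought by the root mean square difference in log2 CPM, each gene centred on its mean over the 6 libraries. The 5 nearest to *Hif1a* were *Ninj2* (0.14), *Cfap45* (0.20), *Socs2* (0.20), *Cysltr2* (0.22) and *Elovl6* (0.25). *Ninj2* and *Cfap45* had at most 148 and 136 counts in a library, and each had as few as 4. *Socs2*, an inhibitor of cytokine signalling, had 7.79 and 8.32 CPM (Naive), 43.9 and 31.2 CPM (Th17) and 97.5 and 67.7 CPM (Th1). By Pearson's r over the 6 libraries, 1 of these 5 was again among the 5 nearest, so the choice of neighbours depended on the measure. Nearest to *Egln3* were *Bhlhe40* (0.24), a transcriptional repressor, and *Ifng* (0.24), the Th1 cytokine. *Bhlhe40* had 8.76 and 8.42 CPM (Naive), 116 and 114 CPM (Th17) and 376.5 and 507.5 CPM (Th1). *Ifng* had 4.55 and 4.56 CPM (Naive), 64.6 and 48.7 CPM (Th17) and 177 and 157 CPM (Th1). It was thus called as higher in Th17 as well as in Th1 relative to Naive. Nearest to *Bnip3* were *Plod2* (0.33) and *Cdh17* (0.34), and nearest to *Vegfa* were *Gm14005* (0.29) and *Kcnk7* (0.35). *Cdh17* had as few as 1 count in a library, under the 3 counts taken as the limit of detection. *Kcnk7* had as few as 4 and was called in none of the comparisons. These are descriptions over 6 libraries that share their cell types and depths.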

How the data were processed

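The RNA-Seq data comprised 6 libraries from mouse T cells, with 2 for each of the 3 cell types. The authors mapped reads to mm10 with HISAT2 2.2.1, removed duplicates per the methods, and counted reads per gene with HTSeq 0.13.5. The deposited values are whole-number raw counts per gene and library. The methods state HTSeq's default parameters while the supplementary code sets reverse strand and has no duplicate step, so reads of a gene and of its antisense partner may not be separable. The annotation used for counting is not given in the sources used here.

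Here edgeR 4.0.16, with limma 3.58.1 under R 4.3.3, was run on the counts with filterByExpr by cell type, TMM, and the quasi-likelihood F-test with cell type as the only term, as the study's DESeq2 analysis names no covariate. Standard errors were taken as the absolute log2 fold change over the square root of F, and 95% intervals from the t distribution of the fit. Thresholds were those of the study. The p-values rest on the spread between the 2 libraries of each group, pooled over all 6 libraries and moderated with that of the other genes. DESeq2 1.42.0 was an alternative. Both tools were also run on counts simulated with the same spread for every gene, which checks the code and not the calls. Log2 CPM used a prior count of 2. The limit of detection was taken as 3 counts, and every member lay above it in every library. Depth covers counting error only, since reads are not independent molecules. Coordinates and exon lengths came from GENCODE vM21 (GRCm38, the assembly also called mm10), and promoter windows from RefSeq (GRCm38.p6). Copies were sought with BLAST among GENCODE transcripts.

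The members and lists were chosen with earlier results of these data known. Genes named from a list were at most 4, those called in any comparison with the largest log2 fold change and more than 3 counts in every library. The nearest genes were 5 for *Hif1a* and 2 for each other called member. Replicate numbers were not used as a block, and leave-one-out fits assume that the lone library varies like the other groups. ATAC-Seq, Hi-C and CTCF data were not analysed here.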

Additional observations from a re-analysis of the deposited data

How the results depend on the processing

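Over 15 alternatives for each of 27 log2 fold changes of members, 359 of 405 values kept their direction and their side of the threshold, 24 gained a call, 7 lost one and 15 changed sign. The 7 were *Egln3* in Th1 compared with Th17 and *Hif1a* in Th17 compared with Naive without Naive replicate 1. The calls of *Egln3* and *Bnip3* compared with Naive, and of *Hif1a* and *Vegfa* in Th1 compared with Naive, were kept under all 15. Values that changed sign were small. Without 1 library, the log2 fold change in Th1 compared with Naive ranged from -0.33 to 0.15 for *Hif1an* and from -0.32 to 0.070 for *Egln2*. For *Egln1* in Th17 compared with Naive they were -0.020 with library size alone, -0.017 after thinning to the smallest library, and -0.19 to 0.24 without 1 library. In Th1 compared with Th17 they were, for *Vhl*, -0.065 with library size alone and -0.025 to 0.32 without 1 library, and for *Egln2*, -0.22 with library size alone, -0.081 with at least 10 counts in every library, -0.0005 with only the 4 libraries compared, -0.0003 after thinning and -0.17 to 0.17 without 1 library.

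Counts of calls moved more. In Th17 compared with Naive, the 3 members called became 5 at an adjusted p under 0.05, with DESeq2, without a filter and with DESeq2 and a replicate block, and 3 to 4 without 1 library. In Th1 compared with Th17, the 1 member called became 4 at an adjusted p under 0.05, 3 with DESeq2, 5 without a filter, 4 with DESeq2 and a replicate block, 0 with library size alone, with at least 10 counts and against a 2-fold change, and 0 to 1 without 1 library. In Th1 compared with Naive 4 to 5 members were called under every alternative. Of the pathway genes, the 15 called in Th17 compared with Naive became 27, 25, 28 and 24 at an adjusted p under 0.05, with DESeq2, without a filter and with DESeq2 and a block, 8 against a 2-fold change, and 6 to 15 without 1 library. The 23 in Th1 compared with Naive became 31, 29, 32 and 29 in the same order, 12 against a 2-fold change and 13 to 21 without 1 library. The 8 in Th1 compared with Th17 became 19, 17, 17 and 16 in that order, 4 with library size alone and with at least 10 counts, 3 against a 2-fold change, and 2 to 8 without 1 library. Over all genes, 739, 1014 and 752 calls became 1738, 1928 and 1824 with DESeq2, 2063, 2164 and 2112 at an adjusted p under 0.05, 2154, 2259 and 2232 without a filter, 343, 674 and 411 with at least 10 counts, and 403, 511 and 349 against a 2-fold change. The causes were not tested, beyond the fewer libraries of the fits without one.

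Deviations of same-numbered libraries correlated at -0.23 (Naive and Th17), 0.17 (Naive and Th1) and 0.08 (Th17 and Th1). With 2 libraries per cell type, and replicate 1 the deeper in each, these values cannot settle whether replicate numbers pair the samples. With the number as a replicate block, edgeR called 4, 5 and 1 members (with *Epas1* gained in Th17 compared with Naive, at -2.54 and adjusted p = 0.0077, and *Egln1* in Th1 compared with Naive, at 1.36 and adjusted p = 0.0082) and 1035, 1402 and 1041 of all genes, and DESeq2 called 5, 5 and 4 members and 1517, 1796 and 1635 genes. Depth limits *Epas1* most, with 21 counts in Th17 replicate 2.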

Other observations

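Some abundant genes had few or no counts, and these were chosen after their values were seen. *Gapdh*, among the most abundant transcripts of most cells, had between 267 and 3261 counts per library, or 12.4 to 50.5 CPM, while *Pgk1* had between 194 and 2002 CPM. *Eno1* had 0 to 2 counts in each library and its near-identical copy *Eno1b* had 310 to 3585. The globin genes *Hba-a1*, *Hba-a2*, *Hbb-bs* and *Hbb-bt* had 0 counts in all 6 libraries, including Naive replicate 1, in which *Car1* had 463 CPM and *Slc4a1* 28.2 CPM. These genes have close copies in the mouse genome, as does *Bnip3*, and the share of their reads that was left uncounted was not tested.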
